A study of Mus musculus with 4 samples.

Results

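The 8 genes examined were Hmgcs1, Idi1, Fdps, Fdft1, Sqle, Hsd17b7, Insig1 and Srebf2, a named list of genes of cholesterol synthesis and its control by the sterol-sensing transcription factor SREBP2, taken from the 53647 genes counted in each library. All 8 were found in the tables by their Ensembl identifiers and passed the filter on low counts. The list holds 6 enzymes, 1 sterol sensor and the gene of SREBP2 itself, and no receptor or carrier for cholesterol uptake, so uptake genes are described from a second list. The libraries came from primary myotubes of wild-type mice, differentiated from myoblasts of limb muscle of pups 2 to 3 days old. Control myotubes were compared with myotubes given 250 ng/mL of recombinant EDA-A2, the ectodysplasin isoform that binds the receptor EDA2R, for 24 h, and both were harvested 72 h after the start of differentiation. Each condition had 2 libraries. No source states a vehicle for the controls or whether the libraries of a condition came from separate cultures, so p-values measure only the spread between these libraries, which may be technical.

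Cells make cholesterol from acetyl-CoA through mevalonate, isoprenoid diphosphates, squalene and lanosterol. When sterols in the endoplasmic reticulum are scarce, SCAP escorts SREBP2 to the Golgi, proteases release its active part, and the genes of synthesis and uptake are transcribed together. INSIG1 holds SCAP back when sterols are plentiful, and its own gene is among the targets. In muscle, cholesterol is a component of the sarcolemma and the T-tubules.

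The members as a group showed little difference between EDA-A2-treated and control myotubes, and 1 of the 8, Hsd17b7, rose. Of the 8 genes, 1 was a differentially expressed gene (DEG, adjusted p under 0.05 in edgeR's quasi-likelihood test over all genes), and it was higher. Over all 15173 genes tested, 4.57% were DEGs, 2.45% higher and 2.13% lower. The fitted log2 fold change (EDA-A2 over control) lay above 0 for 4 members and below 0 for 4, with a median of -0.02, against -0.0021 for all genes tested. Levels are given as normalized counts, which are read-pair counts scaled by TMM to the mean library size. Counts on genes were 29444155 to 29746863 per library, and a member had from 705 to 9576 counts in a library.

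**Figure D1:**
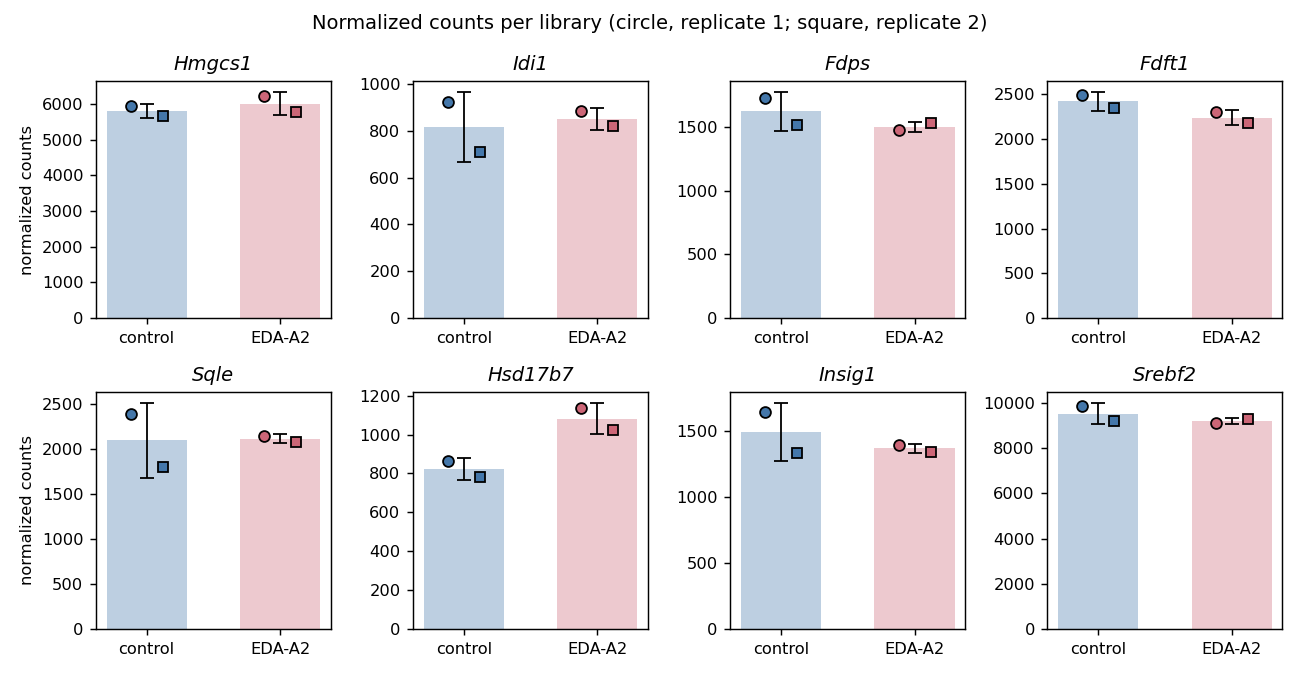
Normalized counts (vertical axes, starting at 0) of the 8 genes in control and EDA-A2-treated myotubes; bars are means, error bars SD over 2 libraries, circles replicate 1 and squares replicate 2. Hsd17b7 is the gene whose treated libraries (1139 and 1025) both lie above the controls (862 and 782), and for Idi1, Sqle and Insig1 both treated libraries fall inside the range of the controls.

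Markers of cell types were read beside the members. All 8 markers of differentiated myotubes were tested. Their summed level was 645048 and 624669 normalized counts in control and 459998 and 462429 after EDA-A2. Most of the sum was Myh3 (236852 and 233601 in control, 160086 and 156193 after EDA-A2) and Acta1 (186033 and 173942, then 119001 and 132306). By edgeR 4 of the 8 (Myh3, Myh8, Acta1 and Actn2) were lower, against 2.13% of all genes tested. Ckm, Tnnt3, Myog and Mymk had log2 fold changes of -0.36, -0.16, -0.18 and -0.01 and did not pass the test. In these bulk samples, fewer cells of a type and less RNA per cell cannot be told apart. The summed level of 5 markers of dividing cells was 20076 to 23742 in control and 21854 to 22286 after EDA-A2, and the 5 myoblast markers had 14482 to 15233 and 15941 to 16333. Of the myoblast markers 2 had log2 fold changes above 0 and 3 below, and 1 was called, Cd34 (0.42). The muscle-specific Pax7, Myf5 and Myod1 were at -0.17, -0.24 and -0.07 and did not pass the test, and most of the sum was Sdc4 (9622 and 9402 normalized counts in control, 10895 and 10799 after EDA-A2), at 0.19, which did not pass either. Of the 6 fibroblast markers 5 were tested, with sums of 50490 and 52749 in control, 48402 and 49198 after EDA-A2, and no call. Most of that sum was Col3a1 (39997 and 46066 normalized counts in control, 42197 and 41786 after EDA-A2). Of the 5 tested, 3 had log2 fold changes above 0 and 2 below, from -0.46 (Col1a1) to 0.48 (Dcn). Plin1 and Lep of the adipocyte list and Lum of the fibroblast list were at 0. The other 5 fibroblast markers were detected, with Pdgfra at 247 to 302 normalized counts, and Fabp4 of the adipocyte list had 7 to 14 counts. Ptprc of leukocytes had at most 2 counts, while Cd68 of the macrophage list had 54 to 81. The 5 endothelial markers together had 144 and 161 normalized counts in control and 183 and 168 after EDA-A2. For the 5 macrophage markers the sums were 70.1 and 84.7 in control and 117.6 and 97.3 after EDA-A2. In each of these lists 2 genes were tested and none was called. The part of the shift in myotube markers in the members' values was not tested.

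Hmgcs1 (ENSMUSG00000093930, chromosome 13 from 120151915 to 120170470 of GRCm39, plus strand) encodes cytosolic HMG-CoA synthase, which makes HMG-CoA, an early intermediate. Control myotubes had 5944 and 5669 normalized counts of it, and treated myotubes 6230.1 and 5785. The conditions overlapped, since EDA-A2 replicate 2 lay between the controls. The log2 fold change was 0.05 (95% interval -0.10 to 0.20, adjusted p = 0.826, edgeR).

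Idi1 (ENSMUSG00000058258, chromosome 13 from 8935537 to 8942487, plus strand) encodes isopentenyl diphosphate isomerase, which interconverts the isoprenoid building blocks. Its normalized counts were 920.1 and 711 in control and 882 and 818 in EDA-A2-treated myotubes. Both treated libraries fell between the controls, and the log2 fold change was 0.06 (-0.18 to 0.30, adjusted p = 0.876, edgeR). The annotation holds 5 pseudogenes named after Idi1, which together had 1 to 8 counts per library. Pairs mapping to more than 1 place were not counted.

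Fdps (ENSMUSG00000059743, chromosome 3 from 89000888 to 89019213, minus strand), the farnesyl diphosphate synthase, had 1727 and 1515 normalized counts in control and 1474 and 1530.2 after EDA-A2. The groups overlapped, and the log2 fold change was -0.11 (-0.28 to 0.06, adjusted p = 0.604, edgeR). Fdft1 (ENSMUSG00000021273, chromosome 14 from 63382189 to 63417027, minus strand) encodes squalene synthase, which commits farnesyl diphosphate to sterols. Its normalized counts were 2493 and 2349 in control and 2304 and 2179.8 after EDA-A2. Both treated libraries of Fdft1 lay below both controls, but the log2 fold change of -0.11 (-0.26 to 0.04) did not pass the test (adjusted p = 0.528, edgeR). Fdft1 shares 1184 bases of exon with Ctsb on the opposite strand. Ctsb had 11872 to 14378 counts per library, and the strand option of the counting is not given in the sources used here.

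Sqle (ENSMUSG00000022351, chromosome 15 from 59186869 to 59203043, plus strand) encodes squalene epoxidase, the first oxygen-dependent step and one of the control points of the pathway. It had 2391 and 1805 normalized counts in control and 2149.6 and 2079.6 after EDA-A2. The controls of Sqle stood further apart than those of any other member relative to their mean (coefficient of variation 19.8%), and both treated libraries lay between them. The log2 fold change was 0.01 (-0.21 to 0.23, adjusted p = 0.976, edgeR). Sqle shares 470 bases of exon with Washc5 on the opposite strand.

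Hsd17b7 (ENSMUSG00000026675, chromosome 1 from 169777093 to 169796813, minus strand) encodes the ketosteroid reductase of the complex that removes methyl groups from lanosterol-derived sterols. Its normalized counts were 862 and 782 in control and 1139 and 1025 after EDA-A2. The conditions did not overlap, and the lowest treated library stood above the highest control. The mean rose from 822 ± 57.2 (SD, n = 2) to 1082 ± 80.6 (SD, n = 2), a fold of 1.32 (95% interval 1.152 to 1.504) and 0.40 ± 0.09 (SE) on the log2 scale, with an adjusted p of 0.0188 in edgeR. No other annotated gene overlaps Hsd17b7. Of the 8 alternatives that used all 4 libraries, 7 kept the call, and with no filter on low counts the adjusted p was 0.223. With 1 library left out in turn the log2 fold change was 0.32 to 0.47, and the call was lost without control replicate 1 (0.47, adjusted p = 0.300, edgeR), without control replicate 2 (0.33, adjusted p = 0.290) and without EDA-A2 replicate 1 (0.32, adjusted p = 0.273).

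Insig1 (ENSMUSG00000045294, chromosome 5 from 28276315 to 28283668, plus strand), the sterol-sensing anchor of SCAP, had 1648.5 and 1335 normalized counts in control and 1395 and 1342 after EDA-A2. Both treated libraries lay within the range of the controls, near its lower end. The log2 fold change was -0.12 (-0.32 to 0.08, adjusted p = 0.611, edgeR). Srebf2 (ENSMUSG00000022463, chromosome 15 from 82031382 to 82093201, plus strand), the gene of SREBP2, had 9866 and 9203 normalized counts in control and 9112 and 9307 after EDA-A2. The groups of Srebf2 overlapped, with a log2 fold change of -0.05 (-0.19 to 0.09, adjusted p = 0.817, edgeR). An intron of Srebf2 holds the microRNA gene Mir33, which had 0 counts in each library of these polyadenylated RNAs.

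For the 7 members that did not pass the test, the 95% intervals together reached from a fold of 0.799 to a fold of 1.23. Changes within those bounds were not resolved with 2 libraries per condition. Of the 8 members, 2 (Fdft1 and Hsd17b7) had conditions that did not overlap, and among all genes tested 45% did so in either direction. The summed level of the members was 25853 and 23368 normalized counts in control and 24686 and 24066 after EDA-A2, so both treated libraries lay between the controls.

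To compare the genes with one another, levels were expressed per kilobase of exon and sequencing depth (FPKM), averaged over the 4 libraries. Hmgcs1 was highest at 37.9 FPKM, followed by Srebf2 at 33.9, Fdft1 at 16.5, Fdps at 10.8, Insig1 at 9.90, Sqle at 8.01, Idi1 at 7.93 and Hsd17b7 at 6.29. The neighbours Fdps and Insig1 overlapped in their ranges over libraries, as did Sqle and Idi1, and Idi1 and Hsd17b7. The order depended on the gene length used. Per kilobase of the longest transcript, Srebf2 came first at 59.3 FPKM and Hmgcs1 second at 47.3, and Sqle (15.5 FPKM) passed Insig1 (10.9 FPKM). Hsd17b7, the member that rose, was the lowest of the 8 with either length.

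The members were also compared by the sequence upstream of their canonical transcripts. The windows cover 250 bases upstream of the start of the canonical transcript (GENCODE, GRCm39). For Hsd17b7 and Srebf2 that start is the edge of the annotated gene. In the other members it lies inside the annotated gene, farthest for Fdps (89009335, with the gene edge at 89019213). Each was searched on both strands for the CCAAT box, to which NF-Y binds, for the sterol regulatory element in the form TCACNCCAC, and for the GC box GGGCGG, and no motif overlapped another in a member. The stretches shown include those of Hmgcs1, which holds the only match to TCACNCCAC, and of Hsd17b7, which rose. The others are that of Srebf2, the regulator, and 30 bases around the close pair of CCAAT boxes of Idi1. All stretches are printed 5′ to 3′ along the gene, with CCAAT boxes (ATTGG on the other strand) and the sterol regulatory element in capitals.
Hmgcs1, chr13:120151732-120151914, plus strand: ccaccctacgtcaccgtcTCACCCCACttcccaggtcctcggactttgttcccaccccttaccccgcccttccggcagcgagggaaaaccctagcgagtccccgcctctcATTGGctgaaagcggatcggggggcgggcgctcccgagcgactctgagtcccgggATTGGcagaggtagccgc
Idi1, chr13:8935867-8935896, plus strand: ttgtgctagATTGGcaATTGGctggaggca
Hsd17b7, chr1:169796814-169797063, minus strand: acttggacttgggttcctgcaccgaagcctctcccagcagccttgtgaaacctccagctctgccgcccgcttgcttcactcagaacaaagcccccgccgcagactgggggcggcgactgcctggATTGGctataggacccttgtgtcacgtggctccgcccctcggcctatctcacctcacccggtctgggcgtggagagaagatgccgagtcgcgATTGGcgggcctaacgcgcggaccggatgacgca
Srebf2, chr15:82031132-82031381, plus strand: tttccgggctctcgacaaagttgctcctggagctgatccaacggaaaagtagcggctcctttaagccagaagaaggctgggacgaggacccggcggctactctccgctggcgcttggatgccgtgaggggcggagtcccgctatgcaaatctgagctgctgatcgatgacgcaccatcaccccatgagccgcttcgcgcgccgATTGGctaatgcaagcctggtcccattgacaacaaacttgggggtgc

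A CCAAT box was found in 8 of the 8 windows, with 1 to 3 copies each, and in 36.5% of the windows of all 21770 protein-coding genes. It was present in 7 of 15 windows of the other synthesis enzymes (46.7%). The form TCACNCCAC of the sterol regulatory element matched in 1 of 8 members, Hmgcs1, from 232 to 224 bases upstream of the canonical start. It matched in 1.116% of all protein-coding genes and in 0 of the 15 other enzymes. Other forms of the element were not searched for. GC boxes were present in 5 of 8 members (62.5%) in 8 of the 15 other enzymes (53.3%), in 49.4% of the protein-coding genes tested for expression and in 36.3% of all, so the members were near the other expressed genes. The CCAAT share of the genes tested for expression was 36.2%. Hsd17b7 had 2 CCAAT boxes, beginning 126 and 34 bases upstream, and 3 GC boxes. Hmgcs1 and Sqle, which did not pass the test of expression, held 2 CCAAT boxes each, with 3 and 4 GC boxes. A match is a string of letters, and binding was not tested.

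**Figure D2:**
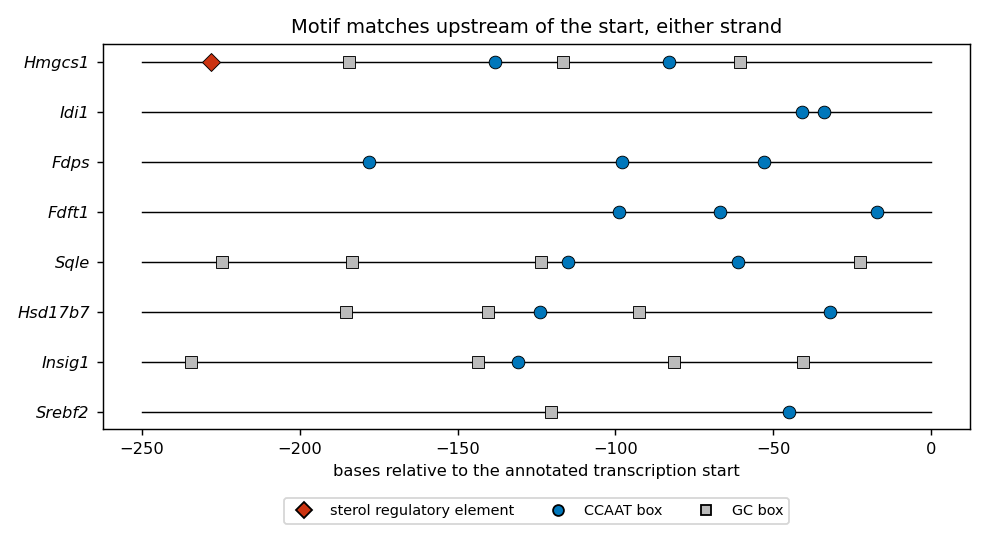
Matches to the CCAAT box (circles), GC box (squares) and sterol regulatory element in the form TCACNCCAC (diamond), on either strand. The horizontal axis gives the 250 bases upstream of the start of the canonical transcript of each gene. All 8 lines carry at least 1 circle, and the diamond is on Hmgcs1 alone.

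The other enzymes of the route to cholesterol were mostly not called either, and the enzyme that fell was Dhcr7. Of 15 listed enzymes 14 were tested, with 0 higher and 1 lower by the edgeR test and 5 at an unadjusted p-value under 0.05, which 15.6% of all genes tested (2372) had. Their median log2 fold change was -0.05 (8 below 0 and 6 above). Dhcr7, the reductase that turns the last intermediate of one branch into cholesterol, had 2179 and 2661 normalized counts in control and 1717 and 1928 after EDA-A2. Both treated libraries were below both controls, and the change was -0.41 ± 0.09 (SE) on the log2 scale (adjusted p = 0.0190, edgeR). This call was lost with total-count scaling (-0.36, adjusted p = 0.0604, edgeR) and with no filter (-0.41, adjusted p = 0.317, edgeR). It was also lost without control replicate 1, control replicate 2 or EDA-A2 replicate 1 (-0.54, -0.26 and -0.33). The losses without a control library are not particular to Dhcr7, since edgeR then called no gene at all.

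Hsd17b7 works with Msmo1 and Nsdhl in sterol demethylation. These partners, with Ebp of the following step, were picked out after their values were seen. Nsdhl had 1211 and 1174 normalized counts in control and 1430.1 and 1332 after EDA-A2, without overlap, and its log2 fold change of 0.21 (0.04 to 0.38) had an adjusted p of 0.171 (edgeR). For Msmo1 the log2 fold change was -0.0047 (-0.20 to 0.19), and the treated libraries lay between the controls. Ebp had a log2 fold change of -0.29 (adjusted p = 0.124, edgeR). With the replicate number as a block it passed the threshold (adjusted p = 0.0499, edgeR).

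**Figure D3:**
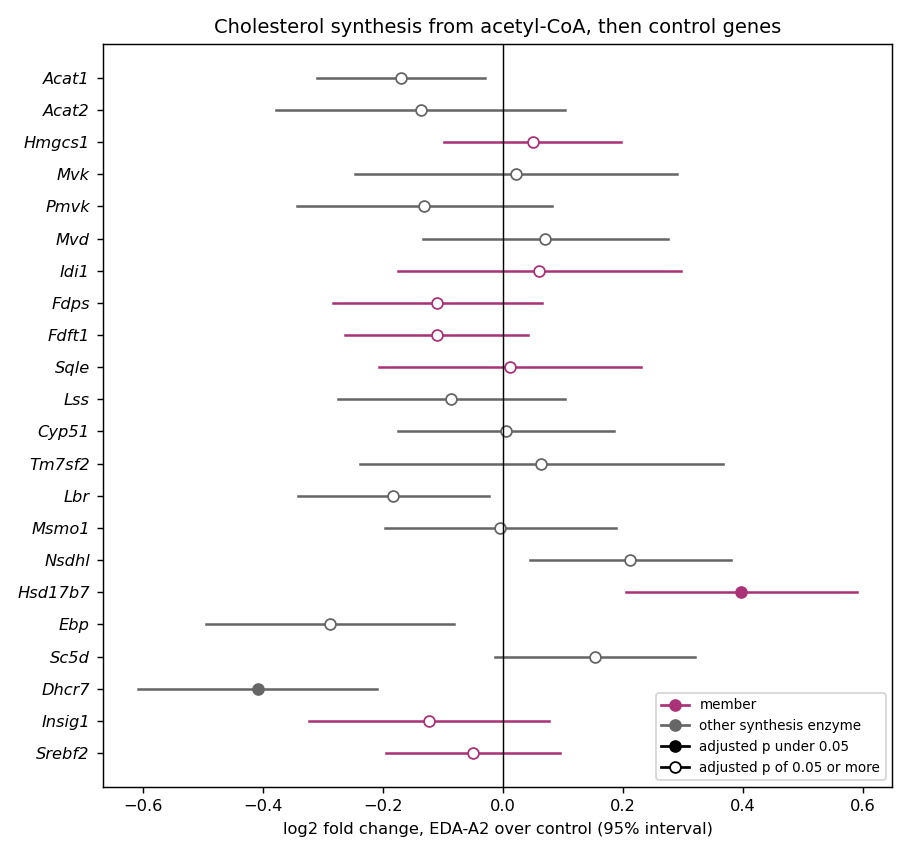
Log2 fold change of EDA-A2 over control (horizontal axis) with its 95% interval from edgeR, for the enzymes in the order of the pathway and then Insig1 and Srebf2; purple marks the 8 members, grey the other enzymes, and filled symbols have an adjusted p under 0.05. The filled symbols are Hsd17b7 at 0.40 and Dhcr7 at -0.41, and the intervals of the other 7 members include 0.

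Genes of SREBP processing and sterol-regulated protein turnover numbered 14, all tested. None was called by edgeR, 2 had an unadjusted p-value under 0.05 (15.6% of all genes tested did), and the median log2 fold change was -0.06. Scap, the escort of SREBP, had 994 and 984 normalized counts in control and 1003 and 1020.1 after EDA-A2 (log2 fold change 0.03). Insig2, a relative of Insig1 that also retains SCAP, had a log2 fold change of -0.04 and Srebf1, the gene of the lipogenic relative SREBP1, one of -0.13 (adjusted p = 0.876 and 0.488, edgeR). Erlin2, part of a degradation complex of the endoplasmic reticulum, had the smallest p-value of this list, with a log2 fold change of 0.19 (adjusted p = 0.192, edgeR).

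All 14 genes listed for cholesterol uptake and transport were tested, and none was called by edgeR. An unadjusted p-value under 0.05 was found for 6 of the 14, against 15.6% of all genes tested. Log2 fold changes lay above 0 for 5 of the 14 and below 0 for 9, with a median of -0.02. Gramd1a, which moves cholesterol from the plasma membrane to the endoplasmic reticulum, had the smallest p-value, with 1779 and 1899 normalized counts in control and 2080.0 and 2212 after EDA-A2. The conditions did not overlap, and the log2 fold change was 0.22 (adjusted p = 0.117, edgeR). With the replicate number as a block it passed the threshold (adjusted p = 0.0441, edgeR).

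Of the fatty acid synthesis genes of the related SREBP1 programme, 13 were tested, with 0 higher and 2 lower by edgeR. Over all genes tested 2.45% were higher and 2.13% lower. An unadjusted p-value under 0.05 was found for 5 of the 13, against 15.6% of all genes tested, and 9 log2 fold changes lay below 0 and 4 above. Acss2, which makes acetyl-CoA from acetate, had 1728 and 1431 normalized counts in control and 1263 and 1219 after EDA-A2, a log2 fold change of -0.35 (adjusted p = 0.0412, edgeR). Scd1, a stearoyl-CoA desaturase, had 3836 and 3760.3 in control and 2942 and 3286 after EDA-A2, with a log2 fold change of -0.29 (adjusted p = 0.0347, edgeR). Both calls were lost under total-count scaling (-0.29 for Acss2 and -0.23 for Scd1), with no filter (-0.35 and -0.29) and without each single library in turn (-0.48 to -0.20 and -0.37 to -0.21). Without either control library edgeR called 0 genes of all, with 2179 and 2449 at an unadjusted p-value under 0.05. The call of Acss2 was also lost with upper quartile factors and in DESeq2 (adjusted p = 0.0542 and 0.0536). The median of the 13 genes was -0.05.

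The libraries of a condition were also compared with each other. Control replicate 1 was above control replicate 2 in 8 of the 8 members, by a median of 0.17 on the log2 scale and by 0.07 (Hmgcs1) to 0.41 (Sqle). Over all genes tested, 49.9% had the higher level in control replicate 1, and the median log2 ratio was -0.00066. Control replicate 1 was also higher in 11 of 13 fatty acid synthesis genes, 11 of 14 SREBP control genes and 8 of 14 other synthesis enzymes. In the uptake, efflux, ester and isoprenoid lists it was higher in 6 of 14, 2 of 7, 3 of 8 and 4 of 9 genes. Between the EDA-A2 libraries, replicate 1 was above replicate 2 in 6 of the 8 members, by a median of 0.07. The gap between the control libraries was larger than the difference between the condition means in 6 of the 8 genes, the exceptions being Fdft1 and Hsd17b7, and in 55.0% of all genes tested. Without control replicate 1 the members' median log2 fold change was 0.06, and without control replicate 2 it was -0.13, so its sign depended on which control was used. This ordering of the controls was noticed in the data and is given as a description.

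**Figure D4:**
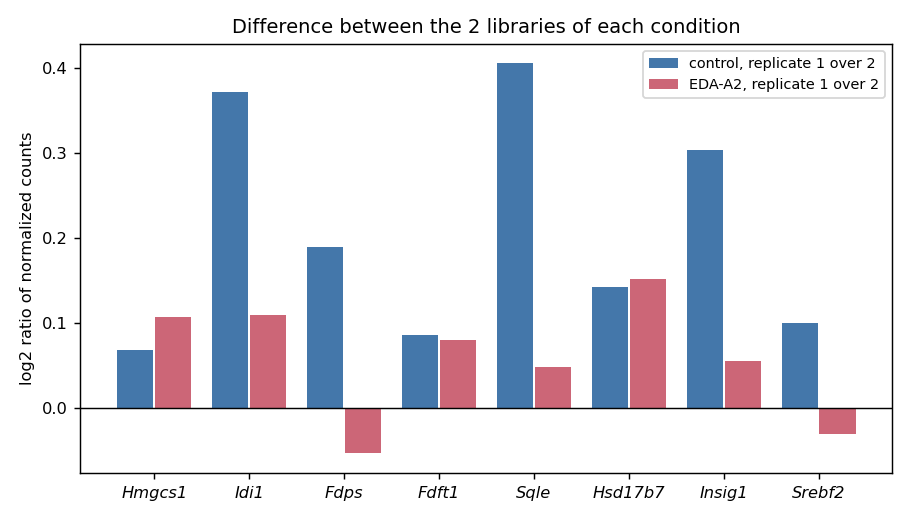
Log2 ratio of normalized counts of replicate 1 over replicate 2 (vertical axis) within control (blue) and within EDA-A2 (red), for each of the 8 genes. All 8 blue bars are above 0, from 0.07 to 0.41, and the red bars lie between -0.05 and 0.15.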

How the data were processed

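Polyadenylated RNA of 4 myotube libraries was sequenced in pairs. The authors trimmed reads (Trim Galore 0.6.5), aligned them to GRCm39 (STAR 2.7.3a) and counted pairs per gene (HTSeq 0.11.1), and the deposited values are raw counts with no normalization. The annotation release and strand option are not given in the sources used here. Summary lines such as no feature (6.68% to 7.40% of pairs) stayed out of library sizes. Counts on genes ran from 29444155 to 29746863, and p-values and intervals rest on 2 libraries per condition.

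Genes passing filterByExpr (minimum count 10, minimum total 15) were tested for EDA-A2 against control with edgeR 4.0.16 (TMM, quasi-likelihood F-test, Benjamini-Hochberg adjustment over all genes, threshold 0.05), checked on simulated counts. Standard errors were derived from the F statistic and the size of the change. Exon lengths and promoters came from GENCODE vM39 and GRCm39, and 130 of 130 listed genes matched. Genes named besides the 8 were fixed anchors (Srebf1, Scap and Insig2) and, per list, every gene called or else the gene with the smallest p-value. Nsdhl, Msmo1, Ebp and the markers named singly were chosen after their values were seen. Some genes of the pathway are not reported here, and the lists and their counts leave them out. The members and lists were chosen with earlier results of these data known. Alternatives were other normalizations, no or a stricter filter, DESeq2 1.42.0, robust estimation, the replicate number as a block, each library left out and another gene length. Over all genes tested, the deviations of same-numbered libraries had a correlation of 0.057. Among the 8 members, replicate 1 was above replicate 2 in 8 in control and in 6 after EDA-A2. The labels do not say that same-numbered libraries share a culture.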

Additional observations from a re-analysis of the deposited data

How the results depend on the processing

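Of 176 log2 fold changes (22 named genes under 8 alternatives that used all libraries), 160 kept their direction and their side of the threshold, and with a library left out 64 of 88 did. Total-count scaling raised the median log2 fold change of all genes to 0.05 and that of the members to 0.037. Medians of the other enzymes (0.011), uptake (0.030) and fatty acid synthesis (0.00081) also moved above 0, while that of SREBP control stayed below (-0.0052). Srebf2 (0.0053), Msmo1 (0.052) and Insig2 (0.014) then changed sign, with 0 other synthesis enzymes and 0 genes of the other 6 lists lower. Msmo1 also changed sign with upper quartile factors (0.00039), where 1 gene of the other 6 lists was lower, as in DESeq2's Wald test (1 gene). With no filter, edgeR tested 25545 genes and called 0 members higher, 0 other enzymes lower and 0 genes of the other 6 lists lower, and over all genes 64 higher and 22 lower, with 2264 at an unadjusted p-value under 0.05. DESeq2 called 294 higher and 271 lower. With exon length taken from the longest transcript the members' median level was 16.7 FPKM in place of 10.3.

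With the replicate number as a block (replicate block), Hsd17b7 stayed called (0.40), 2 other enzymes were lower, 1 gene of the other 6 lists was higher, Msmo1 was at 0.0022, and over all genes 537 were higher and 529 lower. The block changed no call of a member.

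With 1 library left out in turn, 0 to 1 members were higher, 0 to 1 other enzymes lower and 0 genes of the other 6 lists lower, and the members' median ran from -0.13 to 0.061. A condition left with 1 library was assumed to vary like the other. Without control replicate 1 or 2, edgeR called 0 genes of all, with 2179 and 2449 at an unadjusted p-value under 0.05. Medians ran from -0.13 to 0.0024 for SREBP control, -0.010 to 0.15 for efflux, -0.087 to 0.047 for uptake, -0.020 to 0.14 for esters and oxysterols and -0.11 to 0.029 for fatty acid synthesis. Single genes that changed sign ranged from -0.0046 to 0.10 (Hmgcs1), -0.11 to 0.26 (Idi1), -0.18 to 0.23 (Sqle), -0.27 to 0.038 (Insig1), -0.099 to 0.0028 (Srebf2), -0.15 to 0.16 (Msmo1), -0.14 to 0.064 (Insig2) and -0.38 to 0.054 (Pltp). The causes were not tested.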

Other observations

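The branches that lead away from cholesterol were also measured. Of 8 listed genes of LXR signalling and cholesterol efflux 7 were tested, and edgeR called none, with 0 at an unadjusted p-value under 0.05. Pltp, the phospholipid transfer protein, had the smallest p-value, with 1056 and 1432 normalized counts in control and 1057 and 1134 after EDA-A2 (log2 fold change -0.18, adjusted p = 0.503, edgeR). Of 9 genes of cholesterol esters and oxysterols 8 were tested and none was called, again with 0 at an unadjusted p-value under 0.05. Nceh1, a cholesteryl ester hydrolase, had a log2 fold change of 0.13 (adjusted p = 0.546, edgeR).

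The isoprenoid branch uses farnesyl diphosphate, the product of Fdps, for ubiquinone, dolichol and protein prenylation. All 9 of its listed genes were tested and none was called by edgeR, with 1 at an unadjusted p-value under 0.05 (15.6% of all genes tested were). That gene was Pggt1b, which encodes a subunit of a protein prenyl transferase, with 1205 and 1205 normalized counts in control, 1336 and 1367 after EDA-A2 and a log2 fold change of 0.17 (adjusted p = 0.308, edgeR). The median over the 9 genes was 0.06.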
